A study of Homo sapiens with 2 samples.

Results

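Topoisomerase genes, 6 in number (TOP1, TOP1MT, TOP2A, TOP2B, TOP3A and TOP3B), were described here out of 19974 protein-coding genes on chromosomes 1 to 22 and X. They were taken as a named family that had been chosen by the peaks and the covered span seen in earlier results of these data, among them that TOP3A lies mostly under 1 wide peak. The number of peaks and the span covered therefore belong to the choice of the genes, and they are given as a description without tests. The data map KDM1B, a flavin-dependent histone lysine demethylase also called LSD2, by chromatin immunoprecipitation and sequencing. They come from MDA-MB-231, a widely used line of triple-negative breast cancer cells (lacking hormone receptors and HER2 amplification), in which KDM1B carrying 3 FLAG tags was expressed stably from the retroviral vector pOZ. The ChIP library was precipitated with the anti-FLAG M2 antibody, and the input library came from cells of the same line with the same construct. Each group held 1 library, so no value has a replicate error, cells without the tag were not analysed here, and the binding is that of an introduced, tagged protein. The list holds no expression values, so the identity of the cells was not checked against marker genes.

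Topoisomerases cut and rejoin DNA to release the twist that builds up when the helix is opened for transcription or replication. Type I enzymes cut a single strand, and type II enzymes cut both strands and pass another duplex through the gap. TOP1, the target of camptothecin, removes supercoils around transcribing polymerases, and TOP1MT is its mitochondrial relative. TOP2A is the type II enzyme of dividing cells, which separates sister chromosomes and is poisoned by etoposide and doxorubicin, while TOP2B is also present in cells that no longer divide. TOP3A works with the helicase BLM and with RMI1 and RMI2 to take apart joined DNA molecules, and TOP3B acts with TDRD3 on DNA and RNA.

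All 6 genes had a KDM1B peak, and they differed widely in how much of the gene lay under peaks. A peak was assigned to a gene when its midpoint fell inside the gene or no more than 5 kb from either end, a rule that 67.5% of all protein-coding genes and 76.2% of those of 20 kb or more met. The covered span, which is the share of the gene's annotated length under peaks, was 95.8% in TOP3A, 62.8% in TOP2A, 26.9% in TOP1MT, 24.1% in TOP1, 9.83% in TOP3B and 4.86% in TOP2B. Covering of 50% or more was reached by 2 of the 6, against 7.28% of all protein-coding genes and 6.07% of those of 20 kb or more. The median over the 6 genes was 25.5%, beside 1.52% over all protein-coding genes. TOP1MT and TOP1 lay 2.78 percentage points apart, and without replicates it cannot be said whether any neighbours in this order differ.

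The promoters of the 5 genes with a listed start site are shown because a peak touched a start of each. Starts and sequences were those of RefSeq on GRCh38.p14, the assembly also known as hg38. Peaks lay over a listed start in 5 of these 5 genes, and in 31.4% of the 15812 protein-coding genes with a listed start. Since the genes were chosen by their peaks, these shares are a description as well. Each line gives the 250 bases before the start, 5′ to 3′ on the gene's own strand. Capitals mark the letters of the CCAAT box (CCAAT, or ATTGG on the other strand), the GC box (GGGCGG, or CCGCCC) and a TATA-like run (TATAAA, or TTTATA).
TOP1 (chr20:41028572-41028821, plus strand): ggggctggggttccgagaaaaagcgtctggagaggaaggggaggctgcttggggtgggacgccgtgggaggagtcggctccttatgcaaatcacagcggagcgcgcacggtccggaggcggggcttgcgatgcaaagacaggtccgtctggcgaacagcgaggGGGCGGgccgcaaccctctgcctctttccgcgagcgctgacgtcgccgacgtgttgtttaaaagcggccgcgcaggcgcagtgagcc
TOP2A (chr17:40417897-40418146, minus strand): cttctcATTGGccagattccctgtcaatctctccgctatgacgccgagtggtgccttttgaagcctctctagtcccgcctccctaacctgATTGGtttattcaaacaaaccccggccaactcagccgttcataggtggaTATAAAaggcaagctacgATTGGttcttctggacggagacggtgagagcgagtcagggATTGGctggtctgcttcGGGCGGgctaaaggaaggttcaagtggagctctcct
TOP2B (chr3:25664908-25665157, minus strand): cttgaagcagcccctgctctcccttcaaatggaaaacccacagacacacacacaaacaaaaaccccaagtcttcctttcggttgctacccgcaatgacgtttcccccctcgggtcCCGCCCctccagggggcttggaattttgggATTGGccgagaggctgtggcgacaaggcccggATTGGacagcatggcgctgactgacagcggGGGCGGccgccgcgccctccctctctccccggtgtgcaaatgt
TOP3A (chr17:18314995-18315244, minus strand): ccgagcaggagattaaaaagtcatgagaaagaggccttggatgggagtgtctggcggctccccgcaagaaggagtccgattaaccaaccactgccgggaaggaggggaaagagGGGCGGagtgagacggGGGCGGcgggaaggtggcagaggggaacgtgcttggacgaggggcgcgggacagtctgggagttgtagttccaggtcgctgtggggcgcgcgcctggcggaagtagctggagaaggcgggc
TOP3B (chr22:21982788-21983037, minus strand): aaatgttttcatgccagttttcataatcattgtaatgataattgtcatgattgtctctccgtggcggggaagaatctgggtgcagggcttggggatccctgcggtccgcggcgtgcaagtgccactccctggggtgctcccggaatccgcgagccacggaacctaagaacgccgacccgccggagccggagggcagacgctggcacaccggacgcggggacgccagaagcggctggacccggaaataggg
For TOP2B the window before the outer start is printed, and no peak lay over that window or that start. An inner start at position 25664372 of chromosome 3, which lay under a peak, is listed as well.

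In TOP1, TOP3A and TOP3B the peak covered all 250 bases of the window. The TOP1 window held 28 CG dinucleotides, the TOP3B window 22 and the TOP3A window 19, beside a median of 16 (quartiles 5 and 25) over 22132 windows of protein-coding genes. The TOP2A peak reached 23 bases upstream of the start and ran 820 bp inward, so it lay almost wholly inside the gene. That TOP2A window held 4 CCAAT boxes, 1 GC box, 1 TATA-like run and 12 CG dinucleotides. A CCAAT box was present in 32.7% of the windows, and 3 or more of them in 3.34%. A GC box was present in 53.7% and the TATA-like run in 8.996%. The window before the outer TOP2B start held 2 CCAAT boxes, 2 GC boxes and 15 CG dinucleotides, and the nearest peak ended 387 bp short of that start. The same peak lay over the inner start and covered 148 of the 250 bases before it, a window with 46 CG dinucleotides, more than 99.5% of windows. TOP3B had none of the 3 motifs in its window, and TOP1 and TOP3A had only GC boxes, 1 and 2. No motif occurrences overlapped each other, and a match of letters is a description, not a bound site.

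The peaks of the 6 genes, 69 in all, were mostly weak within the list. The strength given below for a peak is the authors' log2 ratio, ChIP against input, and it serves only to describe and rank peaks within this list. Its median was 2.57 over the 69 peaks, which ran from 1.80 to 4.57, beside 2.99 (quartiles 2.58 and 3.52) over all 78536 peaks. A value under the list's median was found in 53 of the 69, and the genes differed in this. It was found in 24 of 26 peaks for TOP1, 10 of 13 for TOP1MT and 10 of 14 for TOP2A. For TOP2B it was 3 of 5, for TOP3A 6 of 7 and for TOP3B 0 of 4. Midpoints lay inside the gene in 53 and outside it, within 5 kb, in 16. Among peaks under 2 kb the median was 2.53 at the topoisomerase genes and 2.95 in the list, and among those of 2 kb or wider it was 2.75 and 3.08.

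**Figure D1:**
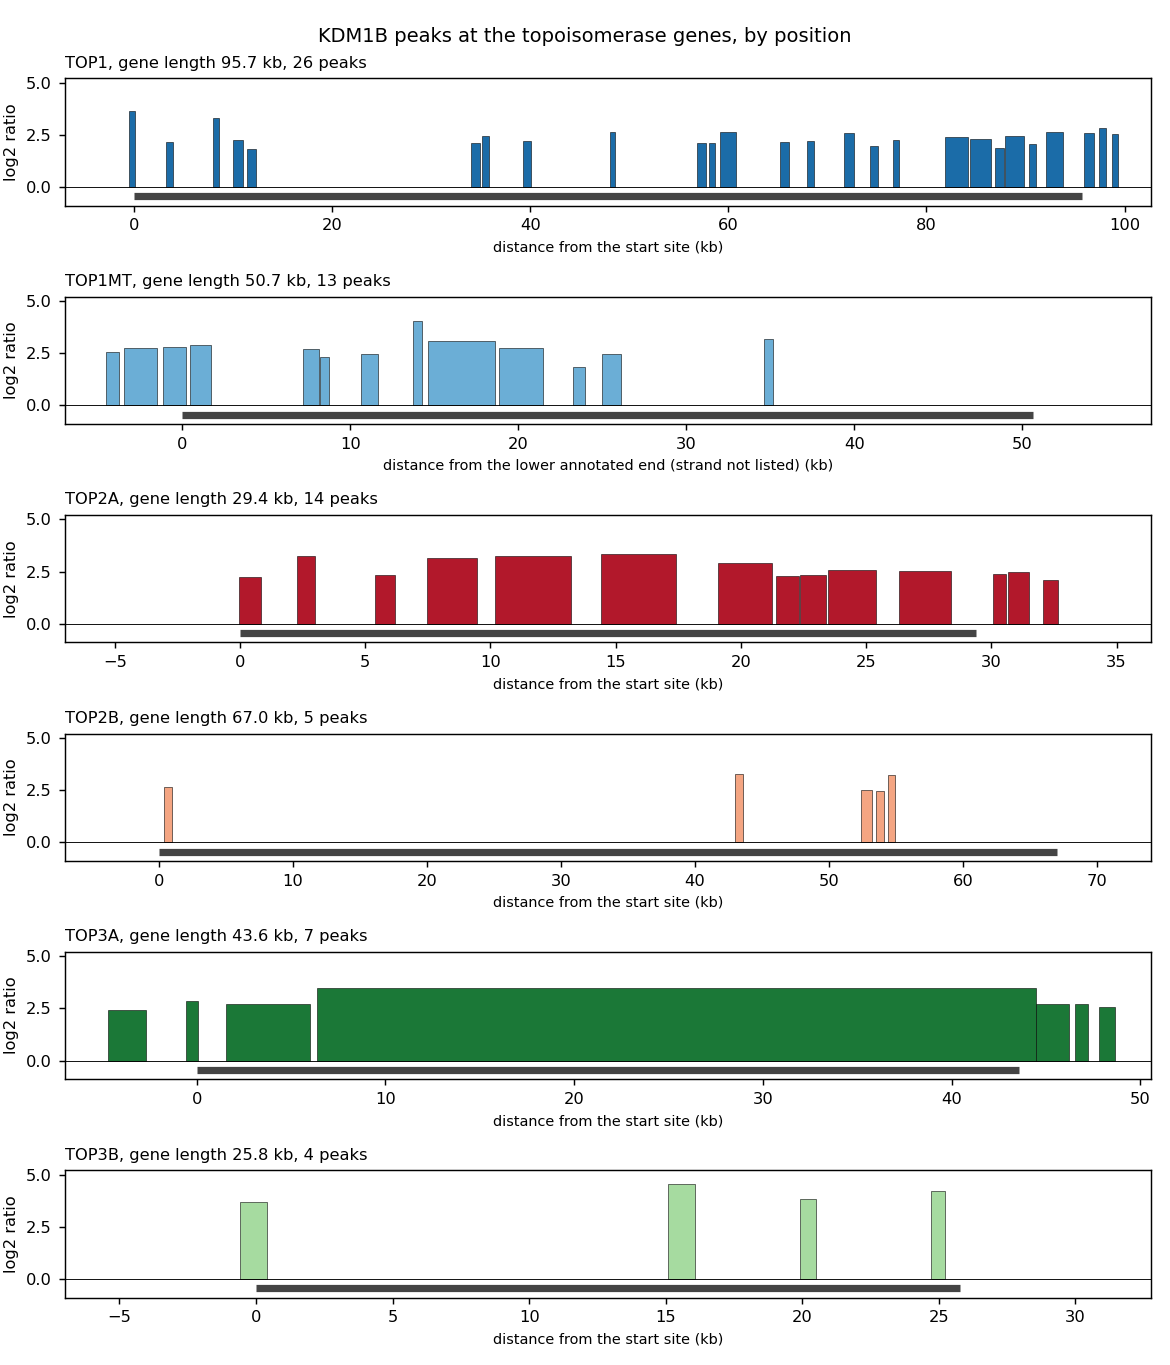
KDM1B peaks at each topoisomerase gene. The horizontal axis is the distance in kb from the start site (for TOP1MT from the lower annotated end), the vertical axis the log2 ratio of ChIP over input, each bar 1 peak drawn at its width, and the dark line the annotated gene. TOP3A is spanned by a bar of 38.1 kb, TOP1 by 26 mostly narrow bars, and TOP2B has an empty stretch of 42.0 kb.

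TOP1 (chromosome 20, 41028822 to 41124487, plus strand, 95.7 kb) had the most peaks and the weakest. It carried 26 peaks, 22 with the midpoint in the gene, with widths from 585 to 2337 bp. Their log2 ratios had a lowest value of 1.80, a median of 2.28 and a highest of 3.65, and 24 of the 26 lay under the list's median. The highest belonged to the start-site peak (41028280 to 41028889), which 79.0% of the list did not reach, and the next, 3.29, to a peak 8.31 kb into the gene. Everything further along the gene stayed at 2.65 or less, and the highest peak beyond its end had 2.81. Peaks thickened towards the end of the gene. With the gene divided into 10 equal parts, the covered span was 13.9, 19.1, 0, 16.6, 8.48, 12.0, 36.4, 27.0, 48.9 and 58.4% from start to end, and the longest stretch with no peak measured 21.7 kb.

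Among the 117 genes with 3 or more peaks out of the 200 protein-coding genes nearest to TOP1 in length, none had a lower median ratio than TOP1. Their own medians centred on 3.01 (quartiles 2.77 and 3.35). Chromosome 20 as a whole had the lowest median ratio of the 23 chromosomes, 2.59, and the 39 peaks in the 500 kb on either side of TOP1 had a median of 2.59. Among 299 other genes of chromosome 20 with 3 or more peaks, 17 had a median below that of TOP1. The part that the chromosome's level plays in the low ratios was not tested.

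The last part of TOP1 is overlapped by PLCG1-AS1, a long noncoding RNA gene on the minus strand. Peaks covered 45.6% of the 26.5 kb that both genes share, 15.8% of the 69.2 kb of TOP1 alone and 23.2% of the 13.5 kb of PLCG1-AS1 beyond TOP1. Midpoints of 12 of the 26 peaks lay in PLCG1-AS1, and the list does not say to which of the 2 genes such a peak belongs.

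TOP1MT (chromosome 8, 143309324 to 143359977, 50.7 kb) had a covered span close to that of TOP1 over all peaks, with a different layout. With only peaks at or above the list's median ratio, TOP1MT kept 10.1% and TOP1 0.683%. The strand and promoter of TOP1MT were not used here, and positions are counted from the lower end. The 13 peaks had log2 ratios from 1.86 to 4.05 with a median of 2.75, and 10 had the midpoint in the gene. The highest ratio, 4.05, belonged to a narrow peak of 523 bp (143323049 to 143323572). Directly beside it lay the gene's widest peak, of 4024 bp and a ratio of 3.06, followed by one of 2620 bp with 2.75. These 2 wide peaks covered 94.9% of the fourth of 10 equal parts of the gene. The lower end itself was under a peak with a ratio of 2.81. From 15.5 kb inside the upper end to 17.7 kb beyond it no peak was listed, so the last 3 of the 10 parts were at 0%.

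TOP2A (chromosome 17, 40388525 to 40417896, minus strand, 29.4 kb) was lined with peaks from its start to beyond its end. Of its 14 peaks 11 had the midpoint in the gene, or 3.75 per 10 kb of gene, the highest density of the 6. Log2 ratios ran from 2.10 to 3.33 with a median of 2.50. The strongest stood in the middle, with 3.33 and a width of 2993 bp (40400480 to 40403473). The next peaks towards the start had 3.24 (3047 bp wide), 3.14 (1990 bp), 2.34 (813 bp) and 3.26 (737 bp). The peak over the start itself had 2.26, above only 8.85% of the list. Beyond the gene's end 3 narrow peaks followed, with 2.40, 2.47 and 2.10. No stretch of the gene longer than 2.36 kb was free of peaks, and each of its 10 parts was covered by between 19.6 and 93.0%.

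TOP2B (chromosome 3, 25597905 to 25664907, minus strand, 67.0 kb), the paralog of TOP2A, had the lowest covered span of the 6 genes, 4.86%. It still exceeded 129 of the 200 protein-coding genes nearest to it in length, whose median was 1.97%. It carried 5 narrow peaks, all inside the gene and none wider than 833 bp. The start-site peak (25663888 to 25664520) had a log2 ratio of 2.67. A single peak in the gene's later part (25621294 to 25621908) had 3.26. A cluster of 3 followed between 25609969 and 25612561, with 2.51, 2.44 and 3.21 in the direction of transcription. Between the first peak and the second lay 42.0 kb without a peak, the longest such stretch in the 6 genes. The surroundings were sparser still: 7 peaks lay in the 500 kb on either side, covering 0.551% of it, and the nearest peak midpoint above the gene was 104 kb away. RARB, the gene of retinoic acid receptor beta, overlaps the end of TOP2B by 28 bp and had 0.407% of its 769 kb covered.

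TOP3A (chromosome 17, 18271428 to 18314994, minus strand, 43.6 kb) lay under peaks almost from end to end. A single peak of 38.1 kb (18270535 to 18308632) with a log2 ratio of 3.49 held 85.4% of the gene and ran past its end. It was the 9th widest of the 78536 peaks. Of the 40 peaks of 20 kb or wider, whose ratios went from 3.08 to 4.51 with a median of 3.71, 11 were weaker. Towards the start followed a peak of 4477 bp with 2.72 (18308983 to 18313460), and then the start-site peak of 610 bp with 2.87 (18314952 to 18315562). The other 4 peaks lay outside the gene, 3 beyond its end with 2.69, 2.70 and 2.57 and 1 upstream with 2.40. Only the wide peak exceeded the list's median. The gene's longest stretch without a peak was 1.49 kb, between the start-site peak and the next one. Since a wide peak counts once, TOP3A had the lowest density of the 6, 0.459 peaks per 10 kb.

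The covering did not stop at TOP3A. SMCR8, which encodes a partner of the C9orf72 protein in autophagy, starts 298 bp from TOP3A on the other strand, and the start-site peak of TOP3A lay over the gap and over both starts. SMCR8 had 77.3% of its 12.8 kb covered, and the peak counted as upstream of TOP3A, with 2.40, lay inside it. MIEF2, a gene for a mitochondrial fission adaptor, lies 4875 bp beyond the end of TOP3A and had 27.5% covered. The 3 peaks beyond the end of TOP3A also lay within 5 kb of MIEF2. The list does not say to which gene such peaks belong. In the 100 kb on either side of TOP3A peaks covered 44.0%, and in the 500 kb 18.8%. The same 100 kb measure gave 20.6% for TOP2A, 11.6% for TOP1MT, 8.15% for TOP1, 5.15% for TOP3B and 0.873% for TOP2B. By this measure the 6 genes stood in the same order as by their own covered span. By the 500 kb on either side they did not: TOP2A had 15.7%, TOP1MT 9.87%, TOP3B 4.36%, TOP1 2.99% and TOP2B 0.551%, with TOP3B above TOP1. Pooled over the protein-coding genes of its chromosome, covering was 13.2% on chromosome 17, 11.9% on 20, 6.92% on 22, 3.81% on 3 and 3.03% on 8. The part of the surroundings in the values of single genes was not tested.

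TOP3B (chromosome 22, 21957025 to 21982787, minus strand, 25.8 kb), the paralog of TOP3A, had few but strong peaks. The start-site peak (21982373 to 21983370) had a log2 ratio of 3.69. The 3 others lay in the later part of the gene, with 4.57 (21966714 to 21967714), 3.84 (21962296 to 21962880) and 4.21 (21957550 to 21958084) in the direction of transcription. All 4 exceeded the list's median, and their median of 4.02 was higher than in 93 of the 94 genes of like length with 3 or more peaks. Chromosome 22 as a whole had a median ratio of 3.64, and 136 of 168 other genes of that chromosome with 3 or more peaks had a lower median than TOP3B. Linear ratios fell on whole multiples of a common step (2.64) in 12.4% of the list, as can happen where the input has as few reads as 1, and the 2 strongest TOP3B peaks were among them. Without peaks of that form TOP3B kept 2 peaks and 3.87% of covered span. The covering of the 4 peaks left 14.7 kb after the start-site peak free.

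**Figure D2:**
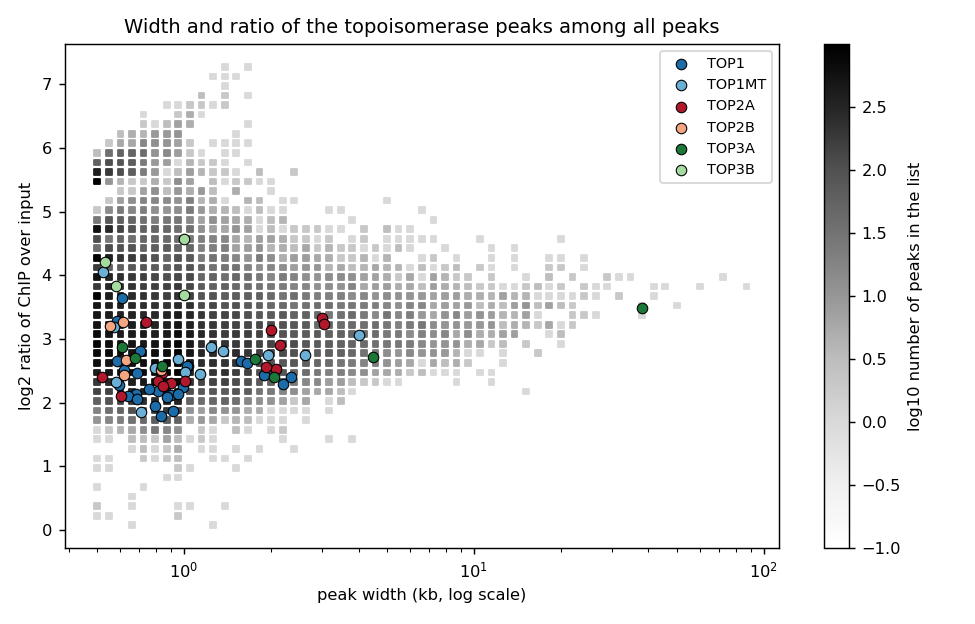
Width and log2 ratio of the 69 topoisomerase peaks among all 78536. The horizontal axis is the peak width in kb on a log scale, the vertical axis the log2 ratio of ChIP over input, grey squares show the number of listed peaks and coloured points the topoisomerase peaks. The 4 TOP3B peaks lie at 3.69 and above, 24 of the 26 TOP1 peaks below 2.99, and a TOP3A point stands apart at 38.1 kb.

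Ranked by covered span among the 200 protein-coding genes nearest in length, all 6 stood above the median of those genes. TOP3A exceeded all 200 (lengths 42.8 to 44.3 kb, median 4.35%, highest 90.5%). TOP1 exceeded 182 (median 2.38%) and TOP2A 182 (median 5.01%). TOP1MT exceeded 168 (median 3.38%), TOP3B 134 (median 3.99%) and TOP2B 129 (median 1.97%). TOP2B and TOP3B thus lay within the quartiles of their like-length genes, which ran from 0 to 10.2% and from 0 to 18.7%. A peak was present in 69.0 to 81.5% of the genes in these 6 groups. The rank of TOP1 rests on weak peaks: with only peaks at or above the list's median ratio its covered span fell from 24.1 to 0.683%, and it exceeded 43.5% of its 200 genes in place of 91%. With the same limit TOP2A fell from 62.8 to 29.8%, though it still exceeded 92% of its 200 genes. Only TOP3A, with 85.4%, then stayed at 50% or more. By number of peaks, TOP2A exceeded 188 of its 200 genes, TOP1 187, TOP1MT 158, TOP3A 130, TOP2B 124 and TOP3B 119.

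**Figure D3:**
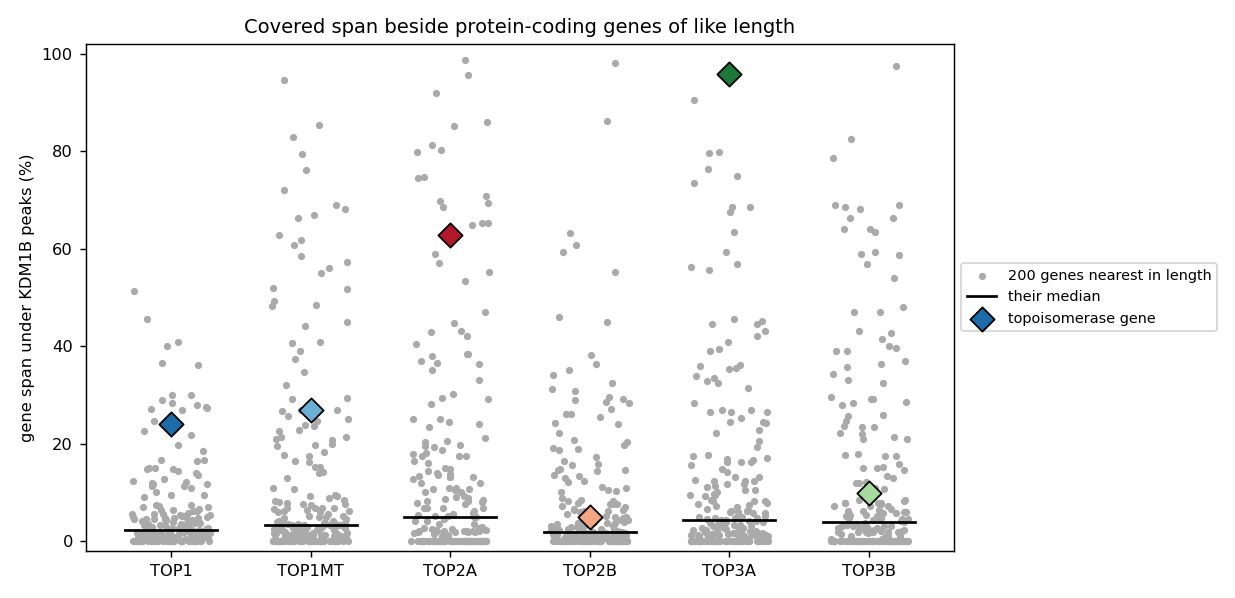
Covered span of each topoisomerase gene beside genes of like length. The vertical axis is the percent of the gene under KDM1B peaks, grey points are the 200 protein-coding genes nearest in length, the black line is their median and the diamond the topoisomerase gene. The TOP3A diamond at 95.8% lies above all its grey points, and those of TOP2B and TOP3B lie among the bulk of theirs.

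Where along the gene the peaks stood differed as well. With each gene divided into 10 equal parts, TOP3A was covered by 65.8% in its first part, 91.9% in the second and 100% in each of the other 8. TOP1 reached its highest values in the last 2 parts. TOP3B was at 0% from the second to the fifth part, and TOP2B from the second to the sixth. In TOP2B and TOP3B the start-site peak therefore stood alone, with a free stretch behind it.

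**Figure D4:**
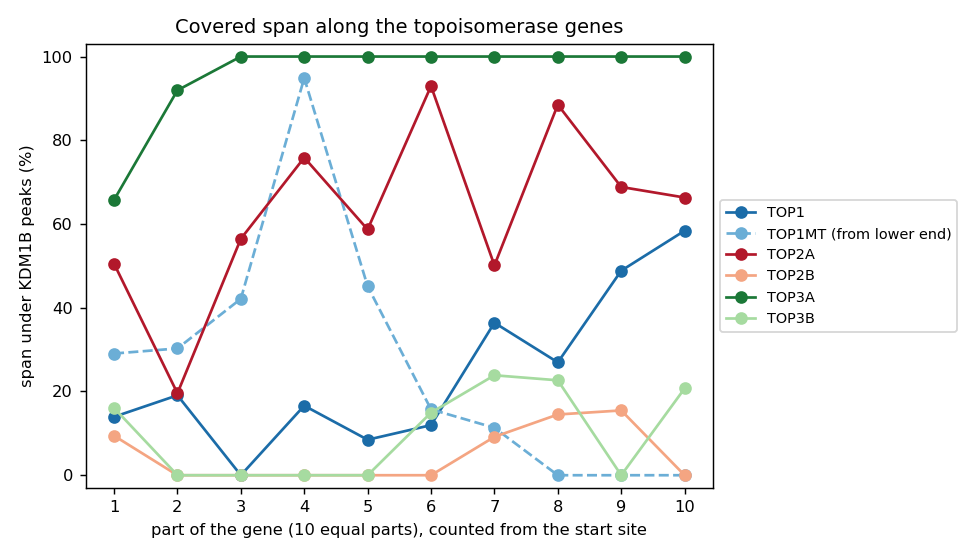
Covered span along each gene. The horizontal axis is the part of the gene, out of 10 equal parts, counted from the start site (for TOP1MT from its lower end, dashed), the vertical axis the percent of that part under KDM1B peaks, and each line 1 gene. TOP3A stays at 100% from the third part on, TOP1 stands at 58.4% in the last part, and TOP2B and TOP3B touch 0%.

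For each topoisomerase gene, the 3 most alike in covered span among its 200 genes of like length were found. Nearest to TOP3A were SUGP2, a splicing-related gene, with 90.5%, UBA2, a subunit of the SUMO-activating enzyme, with 79.7%, and BRAP with 79.6%. Nearest to TOP2A were PCBP2, an RNA-binding protein gene, with 63.5%, GNL2, for a nucleolar GTPase, with 64.8%, and YY1AP1 with 65.2%. CLSTN1 (24.6%), the transcriptional repressor gene SPEN (24.7%) and CCDC93 (24.9%) came closest to TOP1. TBK1, a kinase of innate immune signalling (26.8%), and GMEB1 (26.6%) were among those closest to TOP1MT. TOP2B was matched by LCMT1 (4.85%), SLC5A11 (4.88%) and the mRNA decapping gene EDC3 (4.96%). TOP3B was nearest to HEBP1 (9.08%), the cell cycle transcription factor gene E2F2 (10.7%) and ATP1B1, a sodium pump subunit gene (11.0%). The TOP3A matches were 5.23 to 16.1 percentage points away, so few genes of its length came close to it.

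Genes that work beside the topoisomerases were taken from 6 lists, 39 genes in all. A peak was found in 37 of the 39, beside 67.5% of all protein-coding genes. Covering of 50% or more was found in 10 (25.6%), beside 7.28%, and the median covered span was 15.1%, beside 1.52%. Among partners of topoisomerases 6 of 7 had a peak and the median was 3.10%. TOPBP1, a scaffold of the replication checkpoint, had 29.4%, the helicase gene BLM 14.9%, TOPORS 9.07%, and the TOP3A partner RMI1 3.10%. RMI2 had 1 peak beside the gene and 0% of its span covered, the TOP3B partner TDRD3 had 1.32%, and FMR1 had no peak. TOP3A, at 95.8%, was thus covered more than BLM, RMI1 and RMI2, the other members of its complex. The RecQ helicases had a peak in 5 of 5, with a median of 7.90%, and RECQL4 led with 66.7%, followed by BLM, RECQL5 with 7.90% and RECQL with 5.86%.

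Genes for the repair of topoisomerase-DNA crosslinks had a peak in 10 of 10, with a median of 15.2%. Over all protein-coding genes 67.5% had a peak and the median was 1.52%, for these lists as for those above. PARP1, which senses DNA breaks, had 71.9%. TDP1, which removes trapped TOP1 from DNA, had 38.3% with 36 peaks, and the DNA ligase gene LIG3 had 18.5%. Condensin genes, whose products compact mitotic chromosomes together with TOP2A, had a peak in 8 of 8 and a median of 43.9%. NCAPD2 had 92.6%, NCAPD3 77.1%, NCAPH 56.7% and NCAPG2 47.8%. Mitochondrial DNA maintenance genes had a peak in 8 of 8 and a median of 55.1%. POLG, the mitochondrial DNA polymerase, had 80.6%, TFB2M, a mitochondrial transcription factor, 68.1%, POLRMT, the mitochondrial RNA polymerase, 67.4%, and TWNK, the mitochondrial helicase, 67.2%. Of the meiotic relatives, TOP6BL had 2.72% covered and SPO11, which is related to type II enzymes and cuts DNA in meiosis, had no peak. No list was tested.

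**Figure D5:**
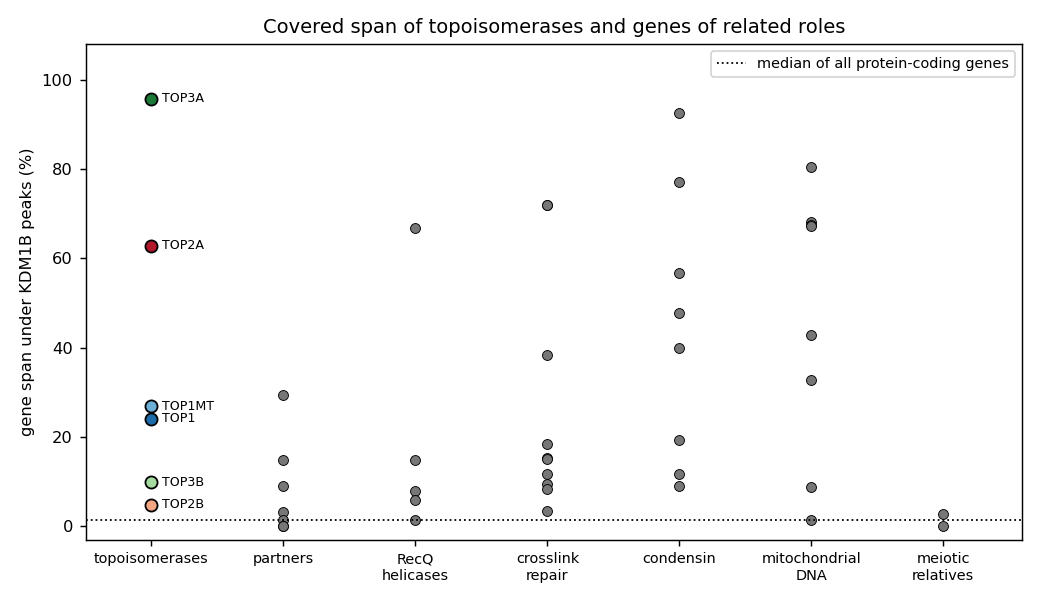
Covered span of the 6 topoisomerase genes and of 39 genes with related roles. The vertical axis is the percent of the gene under KDM1B peaks, each point 1 gene, columns are gene lists (BLM stands in both the partner and the RecQ column), and the dotted line is the median of all protein-coding genes, 1.52%. TOP3A at 95.8% and the condensin gene NCAPD2 at 92.6% are the highest points.

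The 5 kb limit left out few peaks. The outermost peaks counted were at 4.65 kb from TOP3A (log2 ratio 2.57) and 4.16 kb from TOP1MT (2.55). The nearest ones left out were at 5.33 kb from TOP3A (2.35), 5.69 kb from TOP2A (3.62) and 6.15 kb from TOP3A on its other side (2.53). TOP3B and TOP2B had none between 5 kb and 21.8 kb. Without any flank TOP3A would have 2 peaks in place of 7, since most of its small peaks lie outside the gene.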

How the data were processed

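MDA-MB-231 cells with tagged KDM1B gave 1 ChIP and 1 input library. The submitters' processing notes name Trim Galore 0.4.5, Bowtie2 2.2.9 and the build hg38, without a peak caller. The deposited list of 78536 peaks gives chromosome, start, end and a value that is, judged from the values, the authors' log2 ratio of ChIP over input. It holds no read counts, so depth and counting error are unknown. Coordinates are printed as deposited, with starts treated as counting from 0. Genes, starts and promoters came from RefSeq (GRCh38.p14). All 6 topoisomerase genes and 39 list genes matched by symbol, and 5 of the 6 were in the promoter table. No exon annotation was used.

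Midpoints, covered bases and ranks were computed with Python 3.11.15, pandas 2.3.3 and numpy 2.4.6. The counts of midpoints and covered bases were checked on simulated data, and the ranks were not. To find the common step, the most frequent linear ratio was divided by the smallest whole number that made over 95% of the highest 1% of ratios whole multiples (tolerance 1e-05). Genes named were the 6, their protein-coding neighbours within 5 kb, the 3 most alike per gene, and per list up to 4 with the highest covered span and all with no peak. PLCG1-AS1, RMI2 and TDRD3 were added after their values were seen. A few genes falling under this rule are not reported here. Members and lists were chosen with earlier results of these data known. No test was run, since each group held 1 library.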

Additional observations from a re-analysis of the deposited data

How the results depend on the processing

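The number of peaks at the 6 genes, 69, went to 16 with only peaks at or above the list's median ratio and to 39 with peaks within 1 kb joined. It was 53, 59 and 74 with flanks of 0, 1 and 10 kb, and 70 with any overlap of 1 bp. Pooled over the 6 genes the covered span was 32.9%, against 17.8% with only the stronger peaks, 34.9% with joined peaks, 31.9% with 5 kb on each side and 31.6% without whole multiples of the step, an alternative chosen after seeing the data. All 6 genes stayed above the median of their like-length genes with 1000 genes, with genes of the same chromosome, with joined peaks and without whole multiples, and 5 did with only the stronger peaks, where TOP1 did not. On their own chromosomes TOP1 exceeded 76.3% of 131 genes, TOP1MT 95% of 200, TOP2A 86% of 200 and TOP3A all 200. There TOP3B exceeded 65.8% of 187 genes and TOP2B 65% of 200. Among its like-length genes of all chromosomes TOP3B exceeded 67.0%, 81.5% with only the stronger peaks and 52.5% without whole multiples. Between 35 and 38 of the 39 list genes had a peak under the alternatives run. No paired analysis was possible because each group held 1 library and no value came from a test. Depth is unknown, so it is unknown whether stretches without a peak, such as that of TOP2B, lacked binding or lacked reads.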

Other observations

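Genes with as large a part under 1 peak as TOP3A were few. The wide peak of TOP3A was known when the genes were chosen, and the share of TOP3A under it sets the limit used here. Of 10991 protein-coding genes of 20 kb or more, 5 had at least as large a part under a single peak as TOP3A, itself included with 85.4%. The others, named after their values were seen, were FANCA, a Fanconi anaemia DNA repair gene (98.4%), BRD9, a chromatin remodelling subunit gene (95.4%), SPG7, a mitochondrial protease gene (94.6%), and AKAP8, a nuclear anchoring protein gene (87.5%). Of these 5 genes, FANCA and SPG7 lie on chromosome 16 at 89737549 to 89816647 and 89508388 to 89557768.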
